A study of Mus musculus with 151 samples.

Results

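*Tbx2* and *Tbx3*, 2 genes of the 55291 counted, were taken by their symbols and read in all 151 single hair cells of the series. *Tbx2* (ENSMUSG00000000093.6) lies at chr11:85832551-85841948 on the plus strand of GRCm38, the assembly also named mm10, and *Tbx3* (ENSMUSG00000018604.18) at chr5:119670669-119684724 on the plus strand. The cells were picked by hand from the mouse cochlea on a C57BL/6 background and sequenced by a full-length single-cell protocol (Smart-Seq). They comprised 55 wild-type inner hair cells (IHCs) of postnatal day 14 (P14_WT IHC), 50 wild-type IHCs of postnatal day 30 (P30_WT IHC) and 46 cells of postnatal day 14 from *Tbx2* mutants (P14_iOHC), where iOHC is the name given to an IHC that had taken on outer hair cell (OHC) features. All 3 groups, the controls included, carried vGlut3-P2A-iCreER/+, a tamoxifen-inducible Cre under the *Slc17a8* (vGlut3) promoter, and Ai9/+, a Tdtomato reporter that Cre switches on. Tamoxifen was given at postnatal days 2 and 3. The P14_iOHC mice were in addition Tbx2 flox/-, with loxP sites around exon 2 of the one allele and the gene deleted from the other. Tdtomato marked the cells for picking, and among mutant cells those of smaller size were taken, so that the larger mutant cells were not sampled.

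TBX2 and TBX3 are close relatives within the T-box family of transcription factors, which bind DNA through a shared domain, the T-box, and both act in many tissues mainly as repressors. They are often found in the same cells during development. Each also lies beside a further T-box gene, *Tbx2* beside *Tbx4* and *Tbx3* beside *Tbx5*. IHCs are the sensory cells that signal sound to the auditory nerve, whereas OHCs are motile cells that amplify sound through the motor protein prestin (*Slc26a5*).

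The exon that Cre removes from *Tbx2* is shown beside the matching exon of *Tbx3*, because the comparison bears on whether reads of the paralogues could be mistaken for one another and on what the *Tbx2* count can show after recombination. Exon 2 of transcript Tbx2-201 (chr11:85834620-85834887) and exon 2 of transcript Tbx3-201 (chr5:119674026-119674293) both lay wholly within coding sequence and were both 268 bases long. They are given 5′ to 3′ on the plus strand from the GENCODE M21 transcripts, with the bases that differ between them in capitals.
Tbx2 exon 2: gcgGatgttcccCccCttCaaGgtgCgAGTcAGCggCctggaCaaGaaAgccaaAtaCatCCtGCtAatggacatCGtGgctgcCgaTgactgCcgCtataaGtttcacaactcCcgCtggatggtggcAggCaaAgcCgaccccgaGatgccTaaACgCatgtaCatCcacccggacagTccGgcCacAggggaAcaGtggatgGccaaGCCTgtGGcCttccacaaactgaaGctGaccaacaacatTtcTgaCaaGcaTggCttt
Tbx3 exon 2: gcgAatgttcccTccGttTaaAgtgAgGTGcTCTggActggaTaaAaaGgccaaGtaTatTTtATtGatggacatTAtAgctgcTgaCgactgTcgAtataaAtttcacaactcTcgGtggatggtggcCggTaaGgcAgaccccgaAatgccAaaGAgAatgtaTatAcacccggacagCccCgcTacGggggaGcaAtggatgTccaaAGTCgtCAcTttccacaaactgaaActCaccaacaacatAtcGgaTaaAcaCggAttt

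The exons shared 202 of 268 bases (75.4%), and 53 of the 66 differing bases stood at codon position 3. Of the 89 whole codons, 84 (94.4%) encoded the same residue in both genes, with a run of 42 identical residues. Despite this likeness in protein, the longest stretch of bases shared by Tbx2-201 and any *Tbx3* transcript was 14. No stretch of 50 bases of Tbx2-201, out of 3577, occurred in a transcript of another gene on either strand. For Tbx3-201, 67 of 4807 such stretches (1.39%) occurred in another gene, all in the overlapping antisense RNA *Tbx3os1*.

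Exon 2 made up 7.39% of the 3626 bases of Tbx2-201, the only annotated *Tbx2* transcript, which has 7 exons. The *Tbx2* count was taken over the whole gene, so a transcript that lacked exon 2 alone would still have been counted along its other exons. The *Tbx2* level in P14_iOHC is thus a level of RNA from the locus and no direct check of recombination. The length of 268 bases leaves a remainder of 1 when divided by 3, so that its loss shifts the reading frame. The guides used to place the loxP sites are given 5′ to 3′. Neither was found in any annotated transcript on either strand, and their genomic positions were not read here.
left guide: atgtcatgtcattgtcggga
right guide: aggggcccccacagtcgagt

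Total counts per cell ranged from 4326416 to 25035444, with 51 cells at or below 10267217 and the other 100 at or above 11814928. The lower totals held 16 of 55 P14_WT IHC, 12 of 46 P14_iOHC and 23 of 50 P30_WT IHC. The labels tie no cell to a mouse and the number of mice was not given, so each group counts as 1 sample. No test or p-value is therefore given. A mean ± SD describes the spread between the cells of a group, and intervals on counts and shares cover counting error only. No 2 libraries of a group were identical over all genes.

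*Tbx2* was present in nearly every cell of the 3 groups. It was highest in P14_WT IHC, lower in P30_WT IHC and lowest in P14_iOHC, where its spread was widest relative to the mean. In CPM (counts scaled to a library total of 1000000), *Tbx2* in P14_WT IHC ran from 49.5 to 754 with a median of 240, and its mean was 260 ± 127 CPM (SD, n = 55 cells). In P30_WT IHC it ran from 3.29 to 420 CPM with a median of 167, and its mean was 193 ± 103 CPM (SD, n = 50 cells). In P14_iOHC it ran from 0 to 427 CPM with a median of 41.4, and its mean was 69.3 ± 87.4 CPM (SD, n = 46 cells). The cells of all 3 groups overlapped in level. The difference between the P14_WT IHC and P30_WT IHC means was smaller than the SD of either group, and that between the P14_WT IHC and P14_iOHC means was larger than the SD of either.

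The summed counts give the same order. They were 195793 in P14_WT IHC, or 247 CPM of the pooled total (95% Poisson interval 246 to 249), 126763 in P30_WT IHC, or 193 CPM (192 to 194), and 47172 in P14_iOHC, or 66.5 CPM (65.9 to 67.1). At least 1 *Tbx2* count was found in 55 of 55 P14_WT IHC (100%, exact Clopper-Pearson 95% interval 93.5 to 100%). The same held for 50 of 50 P30_WT IHC (100%, 92.9 to 100%) and for 45 of 46 P14_iOHC (97.8%, 88.5 to 99.9%).

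**Figure D1:**
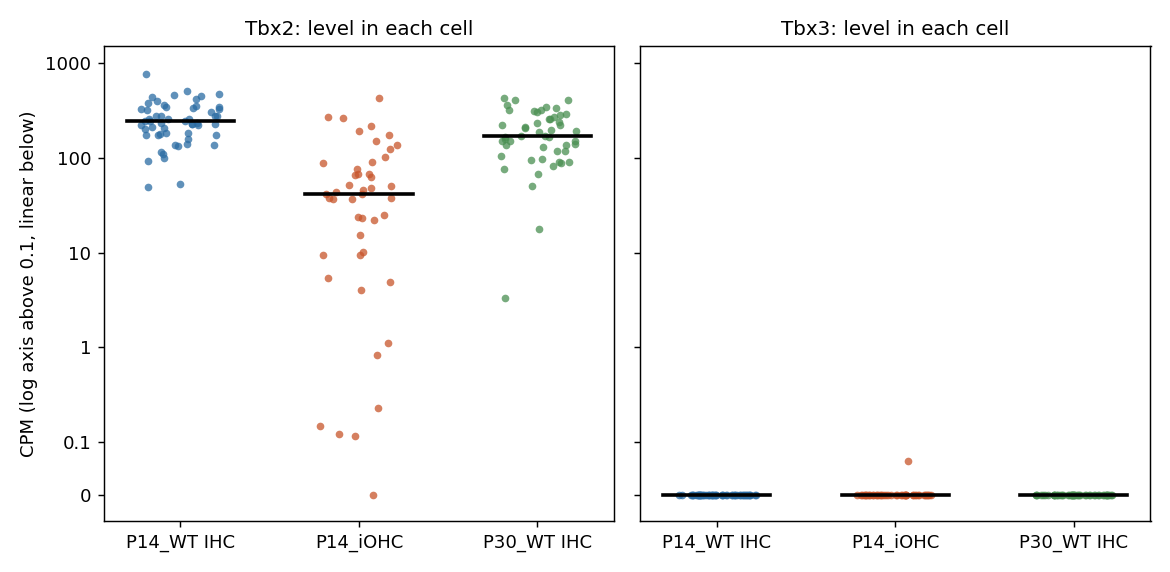
Level of Tbx2 (left) and Tbx3 (right) in each cell, in CPM on an axis that is logarithmic above 0.1 and linear below; points are cells and black bars are group medians. Tbx2 medians were 240 in P14_WT IHC, 41.4 in P14_iOHC and 167 in P30_WT IHC, with P14_iOHC spread from 0 to 427, whereas Tbx3 was at 0 in all but 1 of 151 cells.

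*Tbx3* was essentially not detected. Over the 151 cells and 2155787005 counts it received 1 count, in 1 P14_iOHC (replicate 31) whose *Tbx2* level was 62.2 CPM. No count fell in the 55 P14_WT IHC, which allows a mean of up to 0.00379 CPM by 3 counts over the group and a share of up to 5.45% of cells by 3 cells of the group (exact 95% upper bound 6.49%). In the 50 P30_WT IHC the count was also 0, with limits of 0.00458 CPM and 6% of cells by the same rule (exact upper bound 7.11%). In P14_iOHC the share was 1 of 46 cells (2.17%, exact 95% interval 0.0550 to 11.5%). Per base of exon, *Tbx2* was thus at least 119225-fold higher than *Tbx3* in P14_WT IHC and at least 77190-fold higher in P30_WT IHC, with 3 *Tbx3* counts over the group as the floor. In P14_iOHC the ratio per base was 86174 on the 1 count (Poisson 95% interval 15467 to 3403696). No rank correlation of *Tbx2* with *Tbx3* can be given, since *Tbx3* had no spread in either wild-type group. Of the 12 P14_iOHC under 10 CPM of *Tbx2*, none had a *Tbx3* count, against 1 of all 46 P14_iOHC. With 1 count in all, a relation of *Tbx3* to the *Tbx2* level of a cell could not be read.

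The wider T-box family was read to see which other members were present. Of its 17 genes, 2 (*Tbx2* and *Mga*) had a count in at least 80% of the cells of every group, *Tbx6* was in a minority of cells, and each of the other 14 had counts in no more than 5 cells of any group. Levels of different genes are compared in TPM (transcripts per 1000000), which divides by exon length. *Tbx2* stood at 173 ± 77.8 TPM in P14_WT IHC, 44.1 ± 60.1 in P14_iOHC and 123 ± 67.1 in P30_WT IHC (SD over cells). *Mga*, which encodes a large protein with both a T-box and a domain for pairing with MAX, stood at 12.3 ± 10.99, 6.75 ± 7.11 and 14.1 ± 14.5 TPM in the same order, with counts in 54 of 55, 40 of 46 and 47 of 50 cells.

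*Tbx6*, best known from paraxial mesoderm, had counts in 10 of 55 P14_WT IHC, 13 of 46 P14_iOHC and 14 of 50 P30_WT IHC. Its mean was 6.98, 11.7 and 10.2 TPM in that order, from few cells at up to 83.9, 132 and 87.4 CPM and a median of 0. *Tbx2* made up 89.0% of the summed mean TPM of the family in P14_WT IHC, 82.3% in P30_WT IHC and 69.2% in P14_iOHC. *T*, the founding member of the family, had no count in any cell, and *Tbx1*, which acts in the early otic vesicle, had 5 counts in 2 P14_iOHC and none elsewhere.

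**Figure D2:**
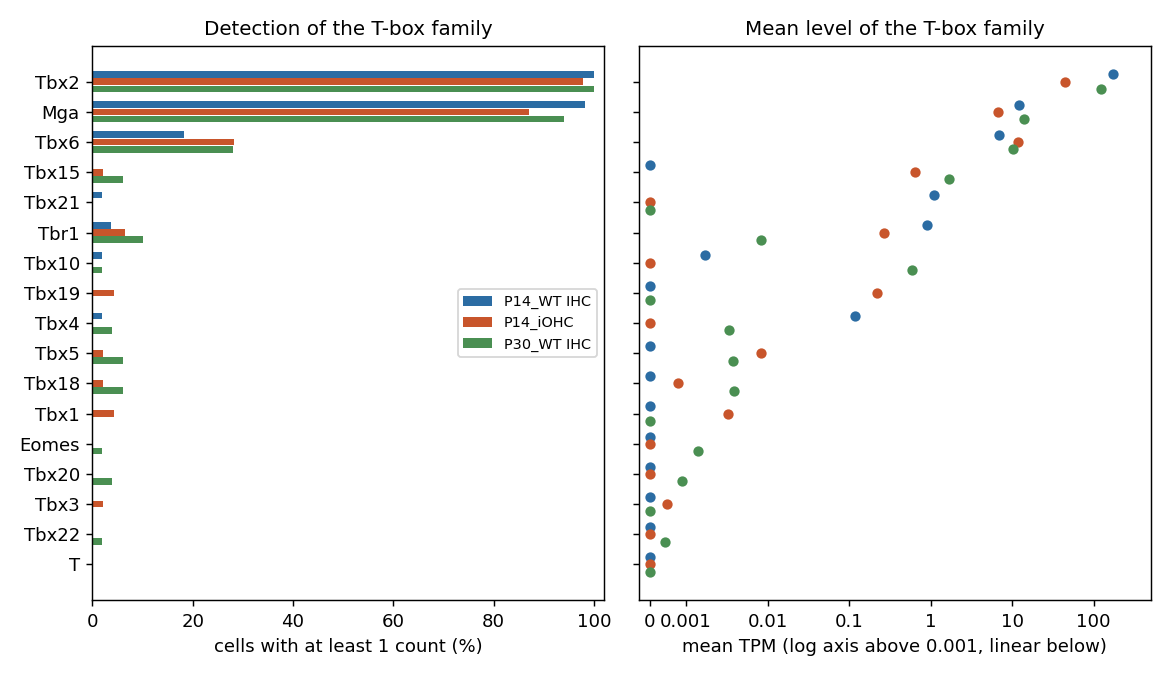
The 17 T-box genes, with the percentage of cells that had at least 1 count (left) and the mean TPM on an axis that is logarithmic above 0.001 and linear below (right), for each group. Only Tbx2, Mga and Tbx6 exceeded 5 TPM in a group.

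Around *Tbx2*, transcription extended to several neighbours, while the stretch around *Tbx3* was nearly silent. Of the 18 counted genes within 500 kb of *Tbx2*, itself included, 12 reached a mean of 1 CPM in some group and 1 had no count at all. Of the 17 within 500 kb of *Tbx3*, 1 reached 1 CPM and 11 had no count in any cell. The gene reached there was *Rbm19*, for an RNA-binding protein of ribosome assembly, with a mean of 3.26 ± 9.25 CPM in P14_WT IHC and counts in 12 of 55 cells. *Tbx5* had 17 counts in 1 P14_iOHC and 3 counts in 3 P30_WT IHC. The antisense *Tbx3os1* and the nearby *Tbx3os2* had none. The windows differed in make-up, with 8 protein-coding genes around *Tbx2* and 3 around *Tbx3*, the members included. Some of the 12 rested on few cells: *Mir5110* had counts in 2 to 3 cells of a group and *Gm23473* in 2 to 6. The share of all counted genes that reached 1 CPM is not given here, so the numbers compare the windows only with each other.

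The nearest gene to *Tbx2* was the non-coding *2610027K06Rik* (chr11:85791661-85832223, minus strand), whose start site lies 328 bases upstream of that of *Tbx2* and points away from it. It had counts in 48 of 55 P14_WT IHC, 34 of 46 P14_iOHC and 44 of 50 P30_WT IHC, at means of 50.7 ± 44.5, 34.9 ± 44.03 and 50.3 ± 52.6 CPM. Across cells its rank correlation (Spearman rho) with *Tbx2* was 0.20, 0.31 and 0.14 in that order. The ratio of its P14_iOHC to its P14_WT IHC mean was less extreme than that of *Tbx2*. *Bcas3*, the protein-coding gene upstream on the same strand as *Tbx2*, had means of 61.1 ± 47.4, 71.5 ± 51.4 and 68.8 ± 59.9 CPM, and its rho with *Tbx2* was -0.03 in P14_WT IHC and -0.00 in P30_WT IHC. *Tbx4*, whose start site lies 53.9 kb downstream, had 153 counts in 1 P14_WT IHC, none in P14_iOHC and 3 in 2 P30_WT IHC. The counting was not stated to use strand, so reads of overlapping or antisense genes such as *Bcas3* and *Bcas3os1* cannot be told apart.

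**Figure D3:**
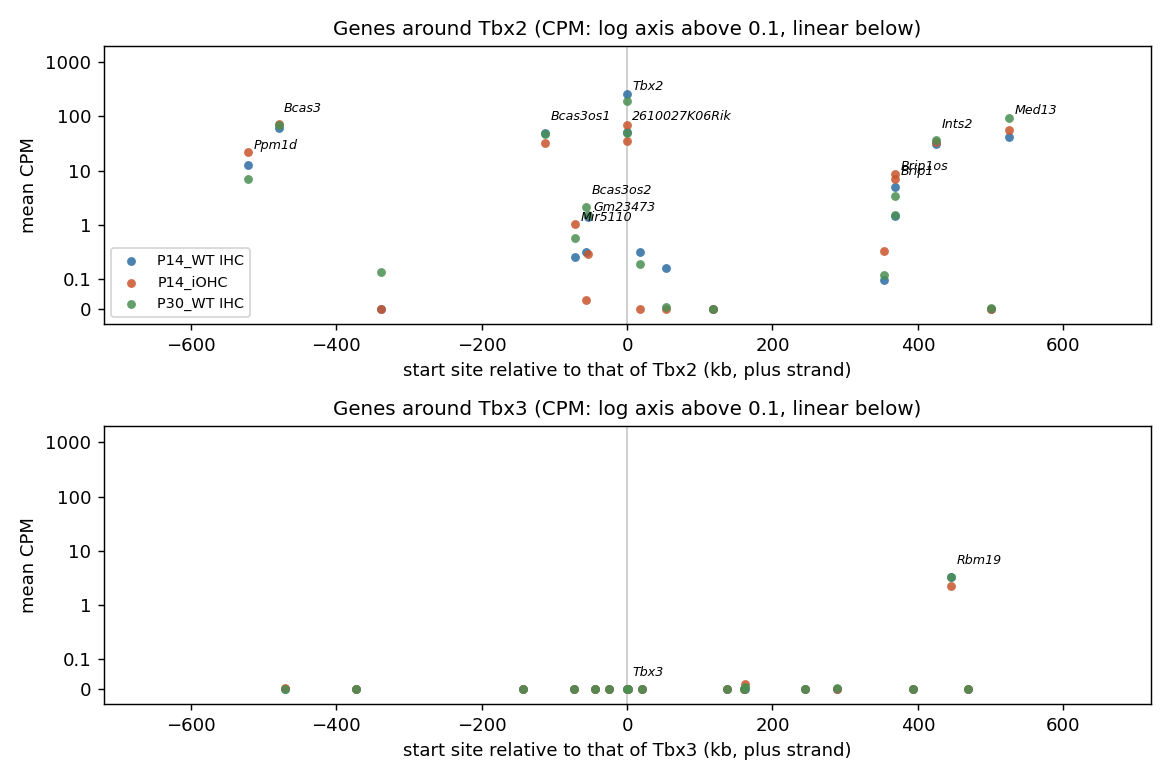
Mean CPM (logarithmic above 0.1, linear below) of the counted genes within 500 kb of Tbx2 (top) and Tbx3 (bottom) against the distance of each start site from that of the member in kb, with a colour per group. Around Tbx2, 12 genes reached 1 CPM in some group, against only Rbm19 around Tbx3. The windows held 8 and 3 protein-coding genes.

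The comparison of P14_iOHC with P14_WT IHC addressed how much *Tbx2* RNA the mutant cells held. The mean *Tbx2* level was 3.75-fold lower in P14_iOHC (log2 ratio of the mean CPM -1.91), against a median log2 ratio of 0.08 over the 11361 genes whose mean reached 5 CPM in either group. Of those genes 11.7% were at least 2-fold lower and 4.3% at least 4-fold lower, while 18.6% were at least 2-fold higher and 9.41% at least 4-fold higher, so that *Tbx2* passed the fold limit of 2 but not that of 4. By the log2 ratio 528 genes, *Tbx2* included, lay at or below it. The fold was 5.80 when group medians were used in place of means. In the mutants the gene was also missing from the allele without loxP sites, before any action of Cre. The part of that loss in the lower *Tbx2* level was not tested.

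The mutant cells did not form a uniform group in *Tbx2*. Of the 46 P14_iOHC, 27 (58.7%, exact 95% interval 43.2 to 73.0%) lay below the lowest P14_WT IHC at 49.5 CPM, and the other 19 lay inside the wild-type range. At the low end, 4 cells had 3 counts of *Tbx2* or fewer, 6 were under 1 CPM and 12 under 10 CPM. Between 10 and 100 CPM stood 24 cells, and 10 stood at 100 CPM or more, of which 3 were at or above the P14_WT IHC median. In P14_WT IHC, by contrast, none was under 10 CPM and 51 of 55 were at 100 CPM or more. The SD was 1.26 times the mean in P14_iOHC, which exceeded that of 89.6% of the 4378 genes with a count in at least 80% of those cells and a mean of at least 10 CPM. The same quotient was 0.489 in P14_WT IHC and 0.535 in P30_WT IHC, where the median gene stood at 0.788 and 0.858, so that the quotient of *Tbx2* was below that of most genes in wild-type cells. The genes were not matched for level, and the mean of *Tbx2* exceeded that of 87.2% of them in P14_WT IHC, 80.01% in P30_WT IHC and 35.5% in P14_iOHC.

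One P14_iOHC, replicate 44, stood apart. It held the highest *Tbx2* level of the group, 427 CPM, and the lowest *Ocm* level, 614 CPM, the only P14_iOHC below the P14_WT IHC mean of 744 CPM for this gene, which encodes the OHC calcium buffer oncomodulin. Its *Otof* level, for the IHC synaptic protein otoferlin, was the highest of the group at 3235 CPM, whereas its *Calb2* level, for the IHC calcium buffer calretinin, was 615 CPM against a P14_WT IHC mean of 14956 CPM. Without this cell the mean *Tbx2* level of P14_iOHC was 61.4 ± 69.5 CPM (SD, n = 45 cells) and the ratio passed 4-fold, at 4.24-fold lower. By depth, the ratio with all cells was 3.39-fold lower among cells with lower totals and 3.89-fold lower among those with upper totals.

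The labelled cell identity was checked on marker lists. All 7 IHC markers were at least 4-fold lower in P14_iOHC than in P14_WT IHC, against 4.3% of all genes. *Otof* was at 430 ± 608 against 3657 ± 925 CPM and *Slc17a8* at 123 ± 194 against 1230 ± 317 CPM. Of the 8 OHC markers, 6 passed the level filter of a 5 CPM mean in either group. All of these were at least 2-fold higher and 5 at least 4-fold higher, against 18.6% and 9.41% of all genes. *Slc26a5* was at 1146 ± 685 against 0.146 ± 0.757 CPM. *Slc26a5*, *Ikzf2* and *Lbh* passed that filter through P14_iOHC alone, so that a higher level there was built into their being counted, whereas *Ocm*, *Sri* and *Strip2* exceeded 5 CPM in both groups. The other OHC markers, *Insm1* and *Bcl11b*, were at or near 0 in both and did not pass. The IHC marker *Rprm*, at 3.28 ± 10.6 against 585 ± 529 CPM, passed the filter through P14_WT IHC alone. A lower level in P14_iOHC was therefore built into its being counted. None of the 11 general hair cell markers passed the limit of 2 in either direction.

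Within P14_iOHC, the *Tbx2* level of a cell ran opposite to several OHC genes and some general hair cell markers, and showed little relation to IHC genes. The rank correlation with *Tbx2* across the 46 cells was -0.55 for *Ocm*, -0.50 for *Sri*, -0.33 for *Lbh*, -0.32 for *Strip2*, -0.15 for *Slc26a5* and -0.06 for *Ikzf2*, which encodes a regulator of OHC identity. For the 5 IHC markers with counts in at least 80% of these cells and a mean of at least 10 CPM, rho lay between -0.07 and 0.12. The 11 general hair cell markers lay between -0.30 (*Espn*) and 0.08 (*Gfi1*), with a median of -0.14 and *Myo6* at -0.29. Over the 4377 genes read in P14_iOHC the median rho was 0.00, with 40 genes at most -0.4 and 32 at least 0.4. Without replicate 44 the values for *Ocm* and *Sri* were -0.52 and -0.47, and with total counts and detected genes held constant they were -0.50 and -0.46. In P14_WT IHC rho was -0.33 for *Ocm*, -0.18 for *Sri* and 0.10 for *Strip2*. In P30_WT IHC it was -0.04, -0.15 and -0.15 in that order. The cells may share mice, which the labels do not name, and a gene's share of the total affects every other CPM of the cell, *Ocm* being the most abundant of these markers.

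**Figure D4:**
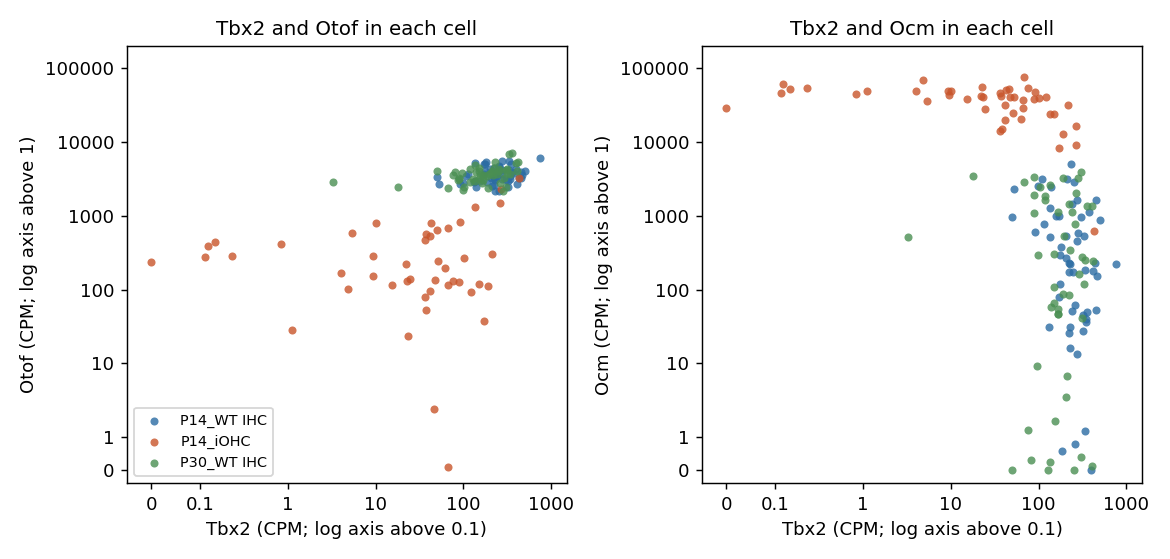
Tbx2 level (x axis, CPM, logarithmic above 0.1) against Otof (left) and Ocm (right; y axes, CPM, logarithmic above 1) in each cell. P14_iOHC with more Tbx2 tended to hold less Ocm (rho -0.55), with no such order in Otof (rho 0.08); replicate 44, at 427 CPM of Tbx2, lay among the wild-type IHCs in both panels.

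Supporting cells of the inner hair cell region, which enclose the IHC, are themselves known to express *Tbx2*, so their markers were read beside it. Of the 18 supporting cell markers, 13 passed the level filter, of which 10 were at least 2-fold higher and 1 at least 2-fold lower in P14_iOHC, against 18.6% and 11.7% of all genes. *Sox2* and *Lfng*, among the 10, passed the filter through P14_iOHC alone, and *Tecta*, the lower gene, through P14_WT IHC alone. With *Fbxo2* left out, which every P14_WT IHC also expressed, the summed level of the list ran from 0 to 10095 CPM in P14_iOHC (median 933), from 0 to 1945 CPM in P14_WT IHC (median 16.1) and from 0 to 805 CPM in P30_WT IHC (median 95.4). The gap junction gene *Gjb6* was at 607 ± 905 CPM in P14_iOHC and 87.6 ± 193 CPM in P14_WT IHC, *Gjb2* at 329 ± 468 and 57.2 ± 114 CPM, and the glutamate transporter gene *Slc1a3*, found in supporting cells around the IHC, at 157 ± 271 and 21.1 ± 52.1 CPM. *Epyc* was at 412 ± 1283 and 10.2 ± 68.8 CPM and *Otogl* at 160 ± 255 and 8.39 ± 33.5 CPM. *Prox1*, a marker of pillar and Deiters' cells, was the only one of the list at 0 in all P14 cells. The rank correlation of this sum with *Tbx2* was 0.22 in P14_iOHC, -0.35 in P14_WT IHC and 0.09 in P30_WT IHC. Of the marker lists of other cells, 1 of 7 glia, 2 of 8 neuron, 4 of 7 fibroblast, 1 of 5 blood and 2 of 7 immune genes passed the filter. Of these 10, 4 were at least 2-fold lower and 4 at least 2-fold higher in P14_iOHC. The higher genes included *Sox10*, a glial and supporting cell regulator, and the fibroblast gene *Lum*. *Sox10* and the blood gene *Hba-a1* passed the filter through P14_iOHC alone, and the immune gene *C1qb* through P14_WT IHC alone. Their direction was therefore built into their being counted. The part of such RNA in the remaining *Tbx2* of P14_iOHC was not tested.

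Between the ages *Tbx2* differed little. Its mean was 1.35-fold lower in P30_WT IHC than in P14_WT IHC (log2 ratio -0.43), with a median log2 ratio of -0.03 over 10747 genes. Among those genes 9.08% were at least 2-fold lower and 2.61% at least 4-fold lower, and 7.96% were at least 2-fold higher and 2.16% at least 4-fold higher, so that *Tbx2* passed no fold limit. Among cells with upper totals the ratio was 1.12-fold lower and among those with lower totals 1.86-fold lower. Only 2 of 50 P30_WT IHC lay below the lowest P14_WT IHC, replicate 23 at 3.29 CPM and replicate 22 at 17.8 CPM. Both kept *Otof*, at 2910 and 2458 CPM, and their mitochondrial share of counts was 37.6% and 13.1%, against a group median of 8.09%. Without these 2 cells the mean of P30_WT IHC was 200.3 CPM. Of the IHC markers, *Fgf8*, a secreted growth factor, was 194-fold lower at P30 and *Rprm* 138-fold lower. Their P30 means were 0.691 ± 3.71 and 4.25 ± 20.0 CPM, from 5 and 9 of 50 cells. Both passed the level filter through P14_WT IHC alone, so a lower level at P30 was built into their being counted. The remaining 5, *Slc17a8*, *Otof*, *Slc7a14*, *Calb2* and *Atp2a3*, passed no fold limit. Both comparisons share the P14_WT IHC, so their ratios are not independent.

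Genes reported elsewhere as repressed by TBX2 or TBX3 were read as a list of 11, chosen from general knowledge. In P14_iOHC against P14_WT IHC 5 passed the level filter. Of these, 3 were at least 2-fold higher and none was 2-fold lower, against 18.6% and 11.7% of all genes. The median log2 ratio was 1.02 against 0.08 over all genes. The 3 were *Cdh1*, for the adhesion protein E-cadherin, *Frzb*, for a secreted WNT antagonist, and *Cdkn1b*, for a cell cycle inhibitor. They passed the filter through P14_iOHC alone, so a higher level there was built into their being counted. *Cdh1* had counts in 20 of 46 P14_iOHC and 2 of 55 P14_WT IHC, at means of 19.5 ± 46.04 and 0.945 ± 6.79 CPM. *Frzb* had counts in 10 of 46 and 3 of 55 cells, at 10.7 ± 25.1 and 0.763 ± 5.47 CPM. *Cdkn1b* had means of 8.83 ± 15.7 and 4.36 ± 10.5 CPM.

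*Cdkn1a*, the cell cycle inhibitor gene most often named as a TBX2 target, was not among them. It was at 287 ± 147 CPM in P14_WT IHC and at 186 ± 212 CPM in P14_iOHC, 1.54-fold lower, and at 66.7 ± 91.0 CPM in P30_WT IHC, 4.31-fold lower than at P14. *Cdkn2a*, the classical target in senescence, and *Nppa*, the heart target, had no count at P14.

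Partner proteins of TBX2 were read as a list of 9, of which 8 passed the level filter in each comparison. None of the 8 passed a fold limit in P14_iOHC against P14_WT IHC, with a median log2 ratio of 0.24 against 0.08 over all genes. Between the ages the median was -0.10 against -0.03. *Chd4*, for the ATPase of a repressor complex, was at 139 ± 67.0 CPM in P14_WT IHC and 99.0 ± 61.9 CPM in P14_iOHC. The histone deacetylase genes *Hdac1* and *Hdac2* were at 101 ± 91.9 and 73.1 ± 63.5 CPM in P14_WT IHC and at 72.1 ± 63.7 and 124 ± 98.9 CPM in P14_iOHC. *Egr1*, for an immediate-early zinc finger factor, was the only one to pass a limit between the ages, at 312 ± 348 CPM in P14_WT IHC and 766 ± 878 CPM in P30_WT IHC, 2.45-fold higher. *Egr1* itself belongs to the 14 dissociation-response genes that passed the level filter. Of these, 7, *Egr1* included, were at least 2-fold higher at P30, against 7.96% of all genes. In P14_iOHC 10 were, *Egr1* not included, against 18.6% of all genes. The part of a dissociation response in the *Egr1* level was not tested. *Nkx2-5*, the partner in the heart, had no count at P14.

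BMP and Hedgehog signals control *Tbx2* and *Tbx3* in several embryonic tissues. Of 18 genes of these pathways 11 passed the filter in P14_iOHC against P14_WT IHC, 3 were at least 2-fold higher and 1 at least 2-fold lower (18.6% and 11.7% of all genes), and the median log2 ratio was 0.71 against 0.08 over all genes. The ligand genes *Bmp2* and *Bmp4* had no count in any P14 cell, and *Shh* had counts in 1 cell of each P14 group. Of the receptors, *Bmpr1a* was at 46.2 ± 52.7 CPM in P14_WT IHC and 75.6 ± 87.0 CPM in P14_iOHC. *Smad1*, for a transducer of BMP signals, was 2.21-fold lower, at 11.8 ± 25.3 against 26.1 ± 33.3 CPM. Of the targets, *Id2*, for an inhibitor of bHLH factors, was 7.33-fold higher, at 558 ± 470 against 76.2 ± 92.6 CPM, *Id1* was 3.53-fold higher, and the Hedgehog transducer *Smo* had counts in 8 of 46 P14_iOHC and in no P14_WT IHC, so that it passed the filter through P14_iOHC alone. At P30 *Id1* was 2.71-fold higher than at P14, and the other 9 genes that passed the filter passed no fold limit (median log2 ratio of the list 0.50 against -0.03).

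The genes whose level followed *Tbx2* across wild-type cells were sought by rank correlation within each group. A gene was read where at least 80% of the cells had a count and the mean reached 10 CPM. In P14_WT IHC 4828 genes qualified, with a median rho of -0.02, and 10 (0.207%) reached a rho of at least 0.4 while 20 (0.414%) were at most -0.4. In P30_WT IHC 4166 genes qualified, with a median of 0.03, and 33 (0.792%) reached at least 0.4 while 13 (0.312%) were at most -0.4. The cells of a group may share mice, which the labels do not name, and they differ in depth, so the values describe these cells only.

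In P14_WT IHC the highest values included those of *Synrg* (0.58), for an adaptor-binding protein of membrane traffic, *Lrrc10b* (0.53), *Fndc5* (0.44), the mitochondrially encoded *mt-Nd2* (0.43) and *mt-Nd5* (0.42), *Frmpd1* (0.42), and *Ush1c* (0.40), for the hair bundle scaffold harmonin. The lowest were *Thap3* (-0.55), *3830406C13Rik* (-0.52), *Coq10b* (-0.50) and *Zhx2* (-0.49). With total counts and detected genes held constant, *Synrg* (0.54) and *Lrrc10b* (0.47) stayed above 0.4. Below it fell *Fndc5* (0.38), *Frmpd1* (0.38), *Ush1c* (0.34), *mt-Nd2* (0.33) and *mt-Nd5* (0.31). The lowest genes stayed past -0.4, at -0.57, -0.45, -0.43 and -0.45 in the order named. By this measure 15 genes reached at least 0.4 and 18 were at most -0.4. The mitochondrial share of counts as a whole had a rho of 0.41 with *Tbx2* in P14_WT IHC. That rho was 0.35 among cells with upper totals, -0.09 among the 16 with lower totals and -0.05 in P30_WT IHC.

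In P30_WT IHC the highest were *Slc29a1* (0.53), for a nucleoside transporter, *Ptpn13* (0.51), *Rpl11* (0.50), *Fxr2* (0.50), *Egln2* (0.50), *Dtx3* (0.48), *Irak1* (0.48) and *Map4k4* (0.48). *Rpl11* belongs to the ribosomal protein genes, whose many pseudogenes make their counts uncertain. The lowest were *Cops8* (-0.53), *Btf3l4* (-0.50), *Ckmt1* (-0.46), for a mitochondrial creatine kinase, and *Acsl3* (-0.46). In these cells rho of *Tbx2* was 0.01 with the total count, 0.16 with the number of detected genes and -0.26 with the summed CPM of the dissociation-response genes. Among the 27 cells with upper totals these were -0.44, -0.25 and -0.56, and among the 23 with lower totals 0.04, 0.55 and 0.07. With total counts and detected genes held constant, 40 genes reached a rho of at least 0.4 and 21 were at most -0.4 at P30; the part of the dissociation response was not tested. In P14_WT IHC the values over all cells were -0.29, -0.17 and 0.11.

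The groups did not name the same genes. Of the 9 genes at or above 0.4 in P14_WT IHC that also qualified in P30_WT IHC, none reached 0.4 there. Their median rho at P30 was 0.12, and 7 of 9 were positive, against a median of 0.03 over all genes. Of the 30 such genes chosen in P30_WT IHC, none reached 0.4 in P14_WT IHC. Their median rho at P14 was 0.10, and 22 of 30 were positive, against a median of -0.02. For the negative genes the median in the other group was -0.05 over 17 genes chosen at P14 and -0.07 over 12 chosen at P30. Across the 3926 genes that qualified in both groups, Pearson's r between the 2 values of rho was 0.11 and Spearman's 0.09, and 51.5% had the same sign. Genes are not independent of one another in these figures.

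**Figure D5:**
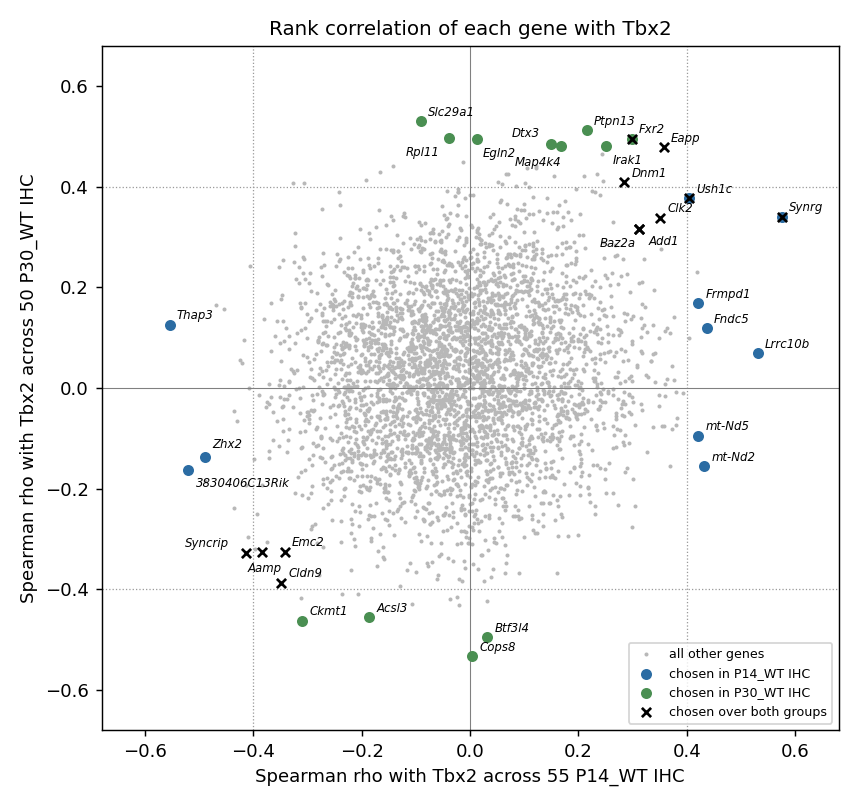
Spearman rho of each of 3926 genes with Tbx2 across the 55 P14_WT IHC (x axis) and across the 50 P30_WT IHC (y axis); dotted lines mark 0.4 and -0.4 and coloured symbols genes named in the text. The genes at or above 0.4 had a median rho of 0.12 (chosen at P14) and 0.10 (chosen at P30) at the other age, and no gene passed 0.4 or -0.4 at both.

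Ranked by the weaker of their 2 values, the genes that stood highest over both groups were *Ush1c* (0.40 in P14_WT IHC and 0.38 in P30_WT IHC), *Eapp* (0.36 and 0.48), *Synrg* (0.58 and 0.34), *Clk2* (0.35 and 0.34), *Add1* (0.31 and 0.32), *Baz2a* (0.31 and 0.32), *Fxr2* (0.30 and 0.50) and *Dnm1* (0.28 and 0.41). The lowest were *Cldn9* (-0.35 and -0.39), for a tight-junction claudin of hair cells, *Aamp* (-0.38 and -0.33), *Emc2* (-0.34 and -0.33) and *Syncrip* (-0.41 and -0.33). *Ush1c* was expressed at 1101 ± 442 CPM in P14_WT IHC, 1115 ± 506 CPM in P30_WT IHC and 516 ± 224 CPM in P14_iOHC. *Synrg* was at 551 ± 184, 614 ± 232 and 166 ± 138 CPM in the same order, and *Dnm1*, for the neuronal dynamin of vesicle retrieval, at 755 ± 334, 499 ± 238 and 94.2 ± 104 CPM. The other genes that stood highest differed less between P14_WT IHC and P14_iOHC, and in both directions. *Eapp* was at 87.8 ± 60.4 and 92.1 ± 74.4 CPM, *Add1* at 65.9 ± 59.3 and 71.5 ± 56.7 CPM and *Fxr2* at 48.7 ± 43.6 and 72.4 ± 71.6 CPM. *Clk2* was at 114 ± 90.9 and 80.7 ± 74.2 CPM and *Baz2a* at 58.7 ± 48.3 and 37.2 ± 44.1 CPM.

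Among P14_iOHC these genes had rho values of 0.15 for *Ush1c*, 0.22 for *Synrg* and 0.16 for *Dnm1*, and *Cldn9* had 0.27. Among cells with upper totals only, rho at P30 was 0.18 for *Ush1c*, 0.08 for *Synrg* and 0.72 for *Eapp*.

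The IHC markers themselves were only loosely tied to *Tbx2* in wild-type cells. In P14_WT IHC rho was 0.37 for *Atp2a3*, 0.36 for *Slc7a14*, 0.25 for *Otof*, 0.11 for *Calb2*, 0.02 for *Slc17a8*, -0.23 for *Rprm* and -0.28 for *Fgf8*. In P30_WT IHC it was 0.41 for *Otof*, 0.11 for *Slc7a14*, 0.11 for *Atp2a3*, 0.03 for *Slc17a8* and -0.01 for *Calb2*. Only *Otof* at P30 reached 0.4 among them. The partner genes lay between -0.18 and 0.13 in P14_WT IHC and between -0.30 (*Hdac2*) and 0.38 (*Cbx3*) in P30_WT IHC. *Mga* was at -0.07 in P14_WT IHC and -0.02 in P30_WT IHC.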

How the data were processed

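Raw gene counts of 151 single cells were used as deposited. The authors trimmed the Smart-Seq reads (Trimmomatic 0.39, FastQC 0.11.9), aligned them to mm10 with HISAT2 2.1.0 and counted them per gene with HTSeq 0.10.0; the strand setting, annotation release and handling of multiply mapped reads are not given in the sources used here. Cells were grouped by their labels. Counts were scaled to CPM by each cell's total (Python 3.11.15, numpy 2.4.6, pandas 2.3.3, scipy 1.17.1). TPM used union exon lengths from GENCODE M21 (GRCm38), which covered 53292 of the 55291 symbols. A fold is the ratio of mean CPM between groups among genes whose mean reached 5 CPM in either. The coefficient rho is Spearman's coefficient of CPM across the cells of a group, for genes with a count in at least 80% of cells and a mean of at least 10 CPM. The study compared groups with DESeq2 on cells as replicates; this was not repeated because no label ties cells to mice. Named genes were the T-box family, list members, genes within 500 kb, and the 8 highest and 4 lowest rho values among protein-coding genes in each wild-type group and over both; a few of them are not reported here. The members and lists were chosen with earlier results of these data known. Alternatives were TMM (edgeR 4.0.16) and DESeq2 1.42.0 size factors, medians, summed counts, totals without mitochondrial genes, TPM, either set of totals, cells within 3 median absolute deviations, counts thinned to 4326416 per cell, other filters, Pearson's r and partial rho. The ratio and correlation steps were tested on simulated data.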

Additional observations from a re-analysis of the deposited data

How the results depend on the processing

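No paired analysis was possible because the replicate numbers only count cells within a group and no result comes from a test. The rank correlation of *Tbx2* with *Tbx3* could not be computed under any setting, since *Tbx3* had no count in either wild-type group. *Tbx2* was lower in P14_iOHC and P30_WT IHC than in P14_WT IHC under every setting run, at log2 ratios from -2.54 to -1.76 and from -0.90 to -0.16; the P14_iOHC ratio passed 4-fold with medians over cells (-2.54) and without replicate 44 (-2.08), the latter chosen after seeing the data, as was leaving out P30_WT IHC replicates 22 and 23. DESeq2 size factors moved the median gene by 0.11 (P14_iOHC) and 0.20 (P30_WT IHC) on the log2 scale. *Tbx2* was found in 100% of P14_iOHC with upper totals, and *Tbx3* in 0% of P14_iOHC after thinning, at 3 counts or more, and with lower totals. Genes at least 4-fold higher in P14_iOHC numbered 1069, but 640 with medians, 2236 at a mean of 1 CPM and 7232 with no filter; those lower numbered 488, but 1029, 1444 and 5619 under these and 1280 with lower totals. At P30 the higher genes numbered 232, but 423 with upper and 632 with lower totals, 1133 at 1 CPM and 8680 with no filter, and the lower genes 280, but 432, 772, 1149 and 5222, and 1117 with medians. Genes with a rho of at least 0.4 in P14_WT IHC numbered 10, but 22 with DESeq2 size factors and 42 with upper totals; those at most -0.4 numbered 20, but 58 with upper totals and 34 with the lower detection and level limits (50% and 1 CPM). In P30_WT IHC they numbered 33, but 171 by Pearson's r, 103 with upper totals and 51 with the lower limits; and 13, but 21 by partial rho and 142 with upper totals. The cause of these changes was not tested, except that fewer or lower filters admit more genes. No rho of a named gene past 0.4 changed sign, and 445 of 487 values moved by 0.15 or less.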
